A study of Mus musculus with 10 samples.

Results

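At ZT18, 2308 hepatocytes were placed at the ends of the axis between the portal vein and the central vein, 1154 as periportal and 1154 as pericentral cells. They come from the 3465 cells of the ZT18A and ZT18B libraries, in a series of 18378 cells. Position was not seen in tissue. It was read from 16 landmark genes: each cell was chosen by its own landmark UMIs, as the mean z-score within its library, on ln(1 + UMIs per 10000), of 8 periportal genes less that of 8 pericentral genes. The periportal set joins the urea and histidine enzymes Ass1, Asl, Hal and Ftcd with Cyp2f2, Ctsc, Hsd17b13 and Pigr. The pericentral set holds the P450 genes Cyp1a2 and Cyp2e1, the vitamin C and calcium genes Gulo and Rgn, and Aldh1a1, Lect2, Mgst1 and Oat. The ordered cells were split into 3 equal parts, and the outer parts are the zones. ZT18A gave 559 cells to each zone and ZT18B gave 595.

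All cells are hepatocytes from adult C57BL/6 male mice (3 months old) with free access to regular chow, anaesthetized with ketamine-HCl and an agent spelled Xylszine-Hcl in the labels, then freed by collagenase perfusion and purified on Percoll. Zeitgeber time (ZT) counts hours from lights on, so ZT18 lies in the dark phase. Unique molecular identifiers (UMIs), which count distinct tagged molecules, were read with the 10x Chromium 3' chemistry. The comparison times were ZT0 (3 libraries), ZT6 (2) and ZT12 (3), prepared in the same way from the same kind of mice. How many mice gave each library is not stated, so p-values measure the spread between libraries, which may be technical.

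Blood enters the liver lobule at the portal vein and leaves at the central vein, and oxygen, nutrients and hormones change along the way. Hepatocytes divide their work along that path, a pattern called zonation: portal cells are known for breaking down amino acids, making glucose and urea and secreting plasma proteins, and central cells for detoxifying drugs, making bile acids and capturing leftover ammonia as glutamine. Wnt signals from the central vein endothelium maintain the central programme.

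The landmarks chose the cells, so their levels are a description. Their differences ran from 0.91 to 6.94 in size on the log2 scale. Hal, which starts histidine breakdown, stood at 47.5 and 39.0 CPM (UMIs scaled to a common library total) in the pericentral cells of ZT18A and ZT18B and at 496 and 527 CPM in the periportal cells. Cyp2e1, an alcohol- and drug-oxidizing enzyme, stood at 2810 and 3730 CPM in pericentral and at 47.4 and 73.5 CPM in periportal cells. The boundary scores were close: in ZT18A the last pericentral cell scored -0.2486 and the first middle cell -0.2465, and the last middle cell scored 0.6109 and the first periportal cell 0.611. In ZT18B these scores were -0.5166, -0.5159, 0.6676 and 0.668. When cells were ordered by 4 landmarks a side, the 8 landmarks left out all differed in their listed direction, with either set of 4 (sizes 0.66 to 4.5 and 0.72 to 4.6). The odd-numbered and even-numbered scores correlated across cells with r = 0.6829 in ZT18A and 0.6963 in ZT18B, and 6.17% and 4.03% of the cells put at an end by the first score lay at the opposite end by the second.

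The zones also differed in depth and in mitochondrial share. The median pericentral cell held 1540 (ZT18A) and 1798 (ZT18B) UMIs, the median periportal cell 1799 and 2021. Mitochondrially encoded genes took 17.8% and 16.3% of pericentral and 23.5% and 21.4% of periportal UMIs. Totals per zone were 978675 to 1310864 UMIs, out of 3181006 UMIs in ZT18A and 3711102 in ZT18B. Summed hepatocyte markers (8 genes) reached 41333 to 83808 CPM. Some listed markers of macrophages (Clec4f, C1qa), lymphocytes (Cd3e, Cd79a), cholangiocytes (Krt19, Epcam) and stellate cells (Col1a1) had no UMI in any of the 4 zone sums. Other genes of these lists did. The stellate marker Dcn had 9 and 6 UMIs in pericentral and 5 and 2 in periportal cells of ZT18A and ZT18B. The cholangiocyte marker Sox9 had 8 and 10 against 20 and 17. Of 8 stellate markers, 7 had UMIs in the pericentral cells of ZT18A, and the list summed to 21.5 and 6.85 CPM in pericentral and 6.82 and 2.29 CPM in periportal cells of ZT18A and ZT18B. Summed macrophage markers reached at most 2.56 CPM and lymphocyte markers 3.065 CPM, and endothelial markers lay between 58.7 and 84.4 CPM. Most of the endothelial sum was a single gene, Dpp4, at 50.3 to 75.1 CPM. No other endothelial marker passed 9 UMIs in a zone sum, and Clec4g and Ptprb had none. The part of RNA from other cell types in the results was not tested. The 2 ZT18 libraries shared 0 identical cell profiles. The cell names carry no barcodes, so shared barcodes were not counted. No doublet caller was run, and the labels do not say whether doublets were removed. Without the deepest 5% of cells, 537 genes differed between the zones, against 575 with them (the test is given next). Both ZT18 libraries and no other carry a sample index from column 4 of the index plate, so time of day and index column cannot be told apart. Within ZT18 the zones share a library, and that comparison does not cross the index.

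Apart from the landmarks, 8830 genes were tested between the zones of ZT18, each within its library. At an adjusted p under 0.05 (edgeR's quasi-likelihood test, Benjamini-Hochberg adjustment), 575 genes (6.51%) differed: 243 (2.75%) were higher in periportal cells and 332 (3.76%) in pericentral cells. All 575 pointed the same way in both ZT18 libraries, but the calls were made from these same libraries. That agreement is therefore no separate replication. The median called gene was 1.88-fold higher on the periportal side or 1.72-fold higher on the pericentral side, while the median of all tested genes was -0.01 on the log2 scale. At least 2-fold differences numbered 103 periportal and 122 pericentral. In 564 of the 575, both sums of one zone lay above both of the other, which held for 45.1% of all tested genes. The middle cells, which the test did not use, lay between the ends in both libraries for 448 of the 575 (77.9%), against 18.6% of all tested genes; the called genes were chosen for a difference between the ends. Scaling by library totals alone, without the TMM factors, called 667 genes and left 28.8% of them periportal, against 42.3% here. Leaving out a ZT18 library reduced the calls to 136 without ZT18A and 174 without ZT18B.

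The genes of largest periportal excess were led by Aldh1b1, a mitochondrial aldehyde dehydrogenase. It stood at 5.05 and 1.73 CPM in the pericentral cells of ZT18A and ZT18B and at 101 and 77.6 CPM in their periportal cells, a log2 difference of 4.72 ± 0.36 (SE; adjusted p = 6e-12). Cdh1, which encodes E-cadherin, the adhesion protein of epithelial junctions, had 9.09 and 6.06 CPM in pericentral and 154 and 136 CPM in periportal cells (4.25 ± 0.38, adjusted p = 3e-10). Neither gene's zones overlapped between libraries, as held for 45.1% of all tested genes. Ctnnbip1 encodes an inhibitor of β-catenin and TCF binding, and so of Wnt output. Its CPM were 3.03 and 4.33 in pericentral and 34.0 and 45.8 in periportal cells (3.40 ± 0.44, adjusted p = 1.1e-06).

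Enzymes made up most of the rest. Ugt2b38, a glucuronosyltransferase, had 8.08 and 4.33 CPM in pericentral and 90.3 and 80.1 CPM in periportal cells (log2 difference 3.79 ± 0.36). Hsd17b6, which oxidizes steroids and retinoids, had 17.2 and 19.9 against 167 and 212 CPM (3.35 ± 0.32), and Sds, serine dehydratase, had 10.1 and 11.3 against 94.7 and 91.5 CPM (3.11 ± 0.36). Cib3 (3.13), the ketone body enzyme gene Bdh2 (2.60), the semaphorin receptor gene Plxna2 (2.54) and Fst (2.46), which encodes the activin antagonist follistatin, completed the 10. All 10 stayed past the threshold without ZT18A and without ZT18B, and under DESeq2.

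**Figure D1:**
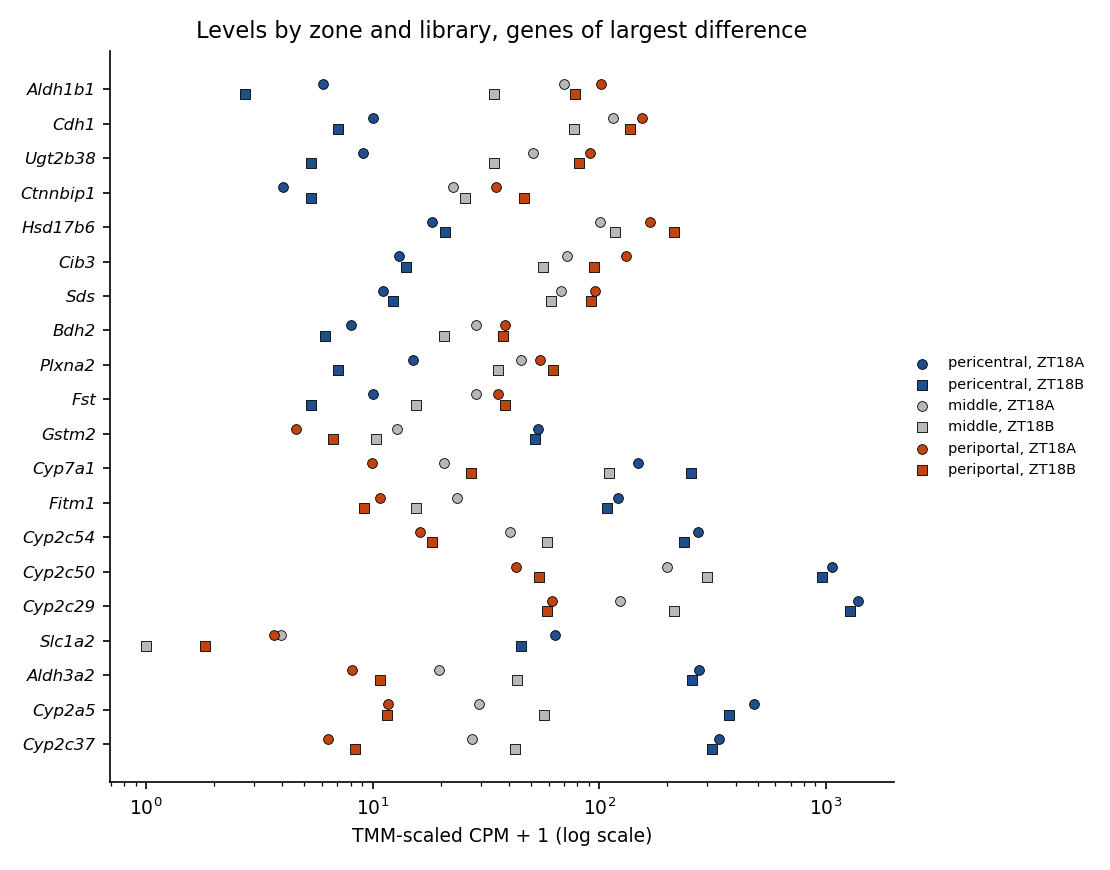
Levels of the 10 genes of largest difference on each side, as TMM-scaled CPM plus 1 on a log axis, in the pericentral (blue), middle (grey) and periportal (red) cells of ZT18A (circles) and ZT18B (squares). Blue and red symbols do not overlap for any of these genes. The genes were chosen for large differences in the same direction in both libraries, and 45.1% of all tested genes did not overlap either. Aldh1b1 runs from 1.73 to 101 CPM and Cyp2c29 from 58.0 to 1390 CPM.

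The pericentral side was led by cytochrome P450 genes, oxygenases that oxidize drugs, steroids and fatty acids. Cyp2c37 stood at 337 and 315 CPM in the pericentral cells of ZT18A and ZT18B and at 5.36 and 7.35 CPM in the periportal cells, a log2 difference of -5.65 ± 0.31 (adjusted p = 8.6e-16). Cyp2a5, the nicotine and coumarin hydroxylase of mouse liver, had 480 and 372 against 10.7 and 10.6 CPM (-5.30 ± 0.36, adjusted p = 2.6e-13). Cyp2c29 had 1390 and 1280 against 60.8 and 58.0 CPM (-4.49 ± 0.23). Cyp2c50 (-4.41) and Cyp2c54 (-3.96) followed. Part of this family cannot be cleanly told apart by 3' reads: of the last 300 transcript bases of Cyp2c37, 93.7% match Cyp2c50 and 90.0% match Cyp2c54. How reads that fit several genes were counted is not given in the sources used here.

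The other genes of this group carry out distinct steps. Aldh3a2, the fatty aldehyde dehydrogenase, had 276 and 255 CPM in pericentral and 7.15 and 9.80 CPM in periportal cells (-4.94 ± 0.25). Slc1a2, a glutamate importer that feeds glutamine synthesis around the central vein, had 62.6 and 44.2 against 2.68 and 0.817 CPM (-4.89 ± 0.49), and its middle cells were already at 2.96 and 0.0 CPM. Its periportal sums rest on 4 UMIs against 113 pericentral ones, a ratio of 32.7 (95% counting interval 12.4 to 122). Cyp7a1, the rate-limiting enzyme of bile acid synthesis, had 148 and 254 CPM in pericentral and 8.94 and 26.1 CPM in periportal cells (-3.52 ± 0.26). Its middle cells differed between libraries, at 19.7 CPM in ZT18A and 109 CPM in ZT18B. Fitm1 (-3.65), a lipid droplet gene, and Gstm2 (-3.44), a glutathione transferase, completed the 10. Each of the 10 stayed past the threshold without either ZT18 library and under DESeq2.

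**Figure D2:**
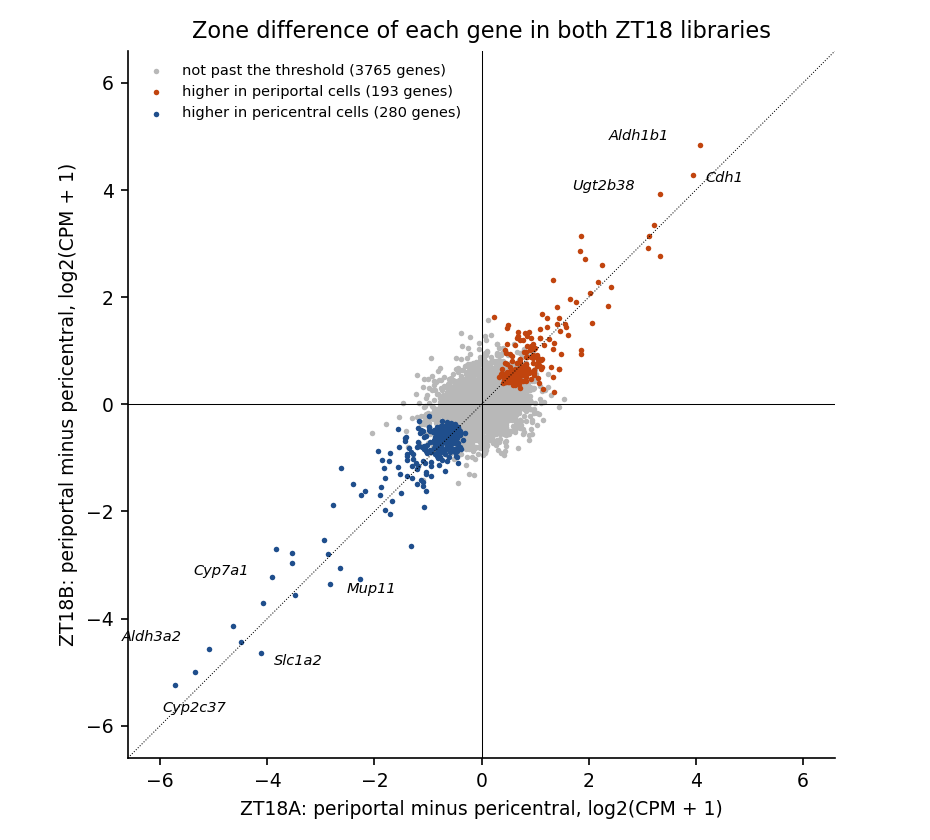
Zone difference of 4238 genes of at least 20 CPM, as periportal minus pericentral log2(CPM + 1), in ZT18A (horizontal) against ZT18B (vertical), with the dotted line marking equal values. Called genes (193 periportal in red, 280 pericentral in blue) lie in the lower left and upper right quadrants. They were called from these same libraries. Pearson's r over all plotted genes is 0.7053, and genes are not independent replicates.

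Promoters are shown for Aldh1b1 and Slc1a2, genes of opposite sides whose windows hold the same Wnt-related letters; they were chosen after the matches were seen. The sequences are the 250 bases before the start site in RefSeq (build GRCm38.p6, plus strand for all 4). Capitals mark matches, on either strand, to the TCF/LEF core CTTTGA (the site of Wnt-driven transcription), the HNF1 half-site GTTAAT, the C/EBP motif TTGCNNAA and the D-box TTATGNAA of clock output factors. Aldh1b1 (chr4:45798772-45799021) is periportal and Slc1a2 (chr2:102706188-102706437) pericentral.
Aldh1b1: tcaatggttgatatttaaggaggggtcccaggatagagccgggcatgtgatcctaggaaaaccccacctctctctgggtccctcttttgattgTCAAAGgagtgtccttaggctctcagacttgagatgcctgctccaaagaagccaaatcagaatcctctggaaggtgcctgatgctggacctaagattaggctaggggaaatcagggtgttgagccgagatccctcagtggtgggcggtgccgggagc
Slc1a2: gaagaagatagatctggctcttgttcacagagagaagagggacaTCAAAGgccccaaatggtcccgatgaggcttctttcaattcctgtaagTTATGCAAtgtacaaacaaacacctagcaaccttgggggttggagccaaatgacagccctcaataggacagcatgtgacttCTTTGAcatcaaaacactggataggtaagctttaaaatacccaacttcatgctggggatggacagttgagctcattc
The TCF/LEF core is found once in Aldh1b1 and at 2 places in Slc1a2, and the remaining capitals in Slc1a2 match the C/EBP and D-box motifs at the same bases. The window of Tsc22d1, a gene taken up further on, holds it too. The windows of Ugt2b38, Ctnnbip1, Cyp2c37, Aldh3a2, Cyp2a5, Cyp2a4 and Glul do not. Of the 8830 tested genes, 6815 have a promoter in the table, and 748 of these 6815 hold CTTTGA in this window. The share was 12.6% of the 175 called periportal and 13.4% of the 254 called pericentral promoters, and 17.1% of the 76 periportal and 17.2% of the 99 pericentral genes of at least 2-fold difference. HNF1 is known as an activator of liver secretory genes. Its half-site, in 4.18% of all, was in 13.7% of called periportal and 5.51% of called pericentral promoters, but in 7.89% and 11.1% of those of at least 2-fold difference. These are matches of letters and not binding sites.

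Cyp2a5 (chr7:26835089-26835338) and its close relative in sequence Cyp2a4 (chr7:26306942-26307191) are shown together, since their zone differences are compared across times further on.
Cyp2a5: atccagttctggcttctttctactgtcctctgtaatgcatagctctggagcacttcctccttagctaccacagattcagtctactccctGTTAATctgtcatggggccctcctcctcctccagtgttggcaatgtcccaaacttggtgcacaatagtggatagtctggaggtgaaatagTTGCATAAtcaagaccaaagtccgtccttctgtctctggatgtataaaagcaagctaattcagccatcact
Cyp2a4: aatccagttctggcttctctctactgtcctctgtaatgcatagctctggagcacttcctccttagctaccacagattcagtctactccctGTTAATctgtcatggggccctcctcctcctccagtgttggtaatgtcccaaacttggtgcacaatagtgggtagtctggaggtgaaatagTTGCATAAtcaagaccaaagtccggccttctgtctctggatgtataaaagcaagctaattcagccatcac
The 2 windows are 97.6% identical. Each holds the HNF1 half-site and, at one shared stretch, the C/EBP and D-box motifs.

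Along 10 finer layers of the score, the profiles took different shapes. Glul, glutamine synthetase, was steepest at the central end: layer 1 held 995 CPM in ZT18A and 303 in ZT18B, and layer 2 held 209.7 and 144. Cyp2c29 declined over a wider stretch, from 2039 and 1836 in layer 1 to 338 and 632 in layer 4 and 51.5 and 61.2 in layer 6. Cdh1 was at 0.0 in layer 1 of both libraries, at 88.2 and 73.3 in layer 5 and at 163 and 107 in layer 10. Hpx, which encodes the haem-binding plasma protein hemopexin, went from 911 and 1292 in layer 1 to 3374 and 4106 in layer 10. The layers come from the landmark score, so these profiles are descriptive.

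**Figure D3:**
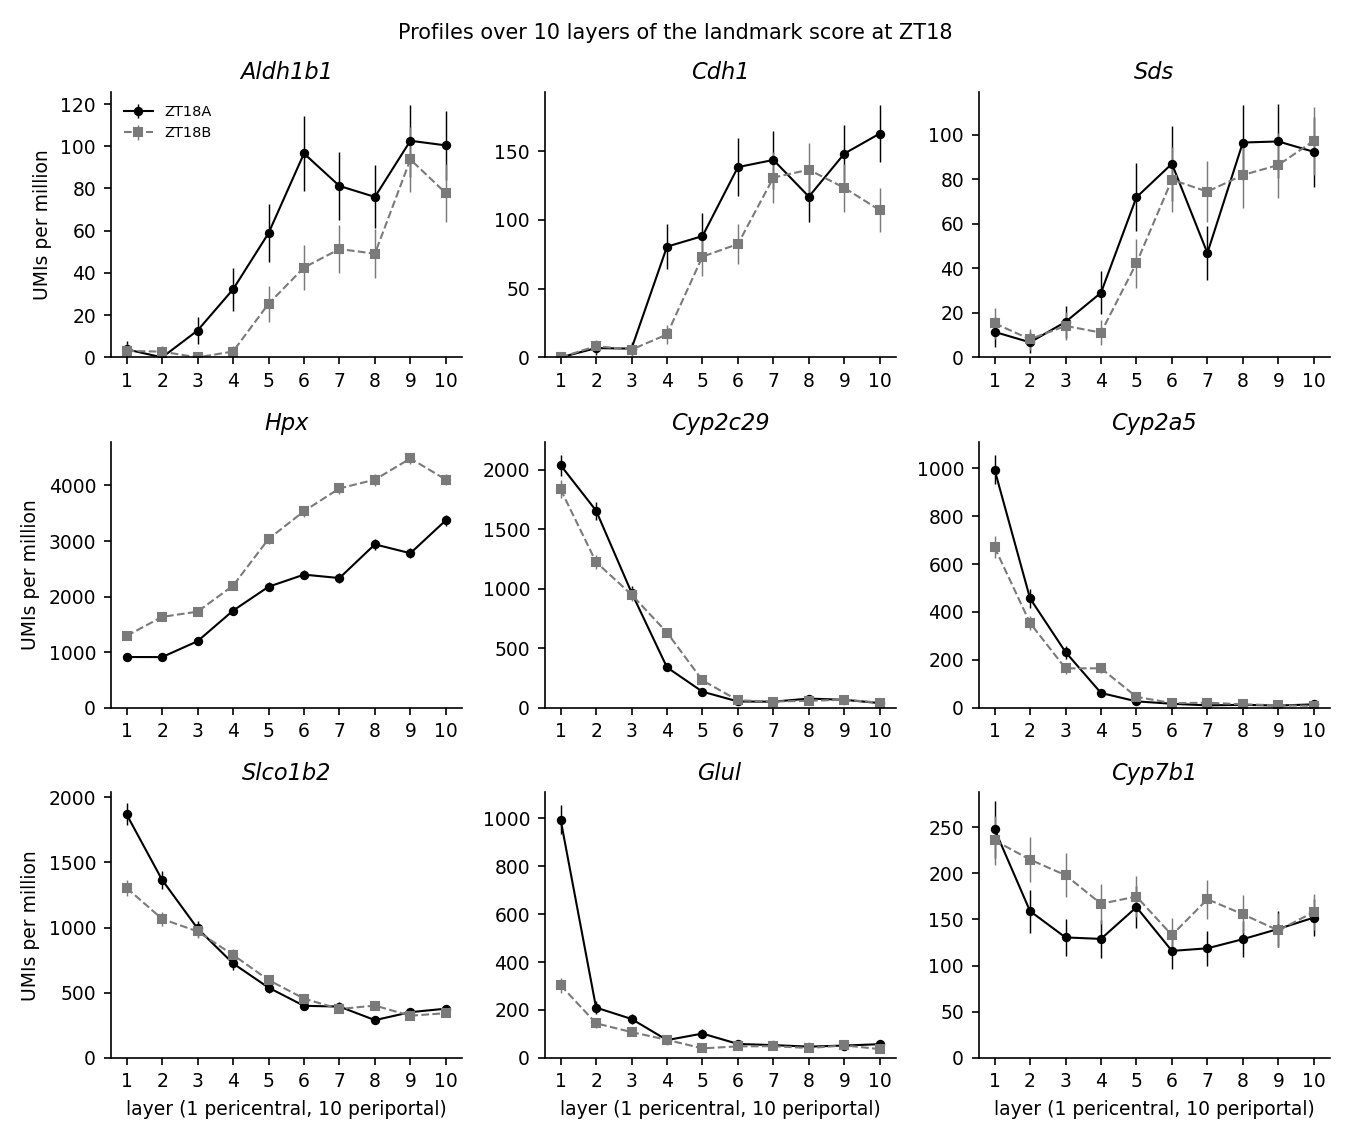
Profiles of 9 genes over 10 equal layers of the landmark score, from layer 1 (pericentral) to layer 10 (periportal), as CPM without TMM scaling, in ZT18A (black circles) and ZT18B (grey squares). Bars are the square root of the UMI count and cover counting error only. Glul drops within the first layers, from 995 to 209.7 in ZT18A, Cyp2c29 over about the first 6, and Cyp7b1 stays between 116 and 248 in every layer.

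Among nitrogen genes, those of amino acid breakdown and ammonia capture held the calls. The urea cycle, which turns ammonia into urea, had no member past the threshold among the 6 tested beside the landmarks Ass1 and Asl (edgeR; 0 also by DESeq2, and 2 at an unadjusted p under 0.05). Their median was 0.23 and their range -0.26 to 0.56. With the ZT18 libraries fitted alone 4 of the 6 passed, all periportal, and 1 passed under several other settings, among them thinned cells and no filter on low counts. Cps1, its entry enzyme and the gene at the top of that range, had 2020 CPM in the pericentral cells of each library and 3030 and 2910 CPM in periportal cells (0.56 ± 0.18, adjusted p = 0.0533). On the other route, glutamine synthesis and its supply, both tested genes of 3 listed were pericentral. Glul had 385 and 175 CPM in pericentral and 55.4 and 46.6 CPM in periportal cells (-2.38 ± 0.34, adjusted p = 5.4e-06), and Slc1a2 is given above.

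Of 38 amino acid breakdown genes, 14 were higher in periportal and 3 in pericentral cells, with a median of 0.31 against -0.01 over all genes. Serine and threonine breakdown led, with Sds above and its relative Sdsl at 3.03 and 2.60 CPM in pericentral and 16.1 and 23.7 CPM in periportal cells (2.81 ± 0.60, adjusted p = 0.00212). The pericentral members were Cdo1, which oxidizes cysteine (628 and 564 against 363 and 360 CPM, -0.72 ± 0.14), Prodh, proline dehydrogenase (-0.65 ± 0.17), and Hpd, a tyrosine breakdown enzyme (-0.58 ± 0.13). Without ZT18A 7 periportal and 0 pericentral genes of the list remained past the threshold, and without ZT18B 5 and 1. Cdo1 reached adjusted p = 0.111, Prodh 0.292 and Hpd 0.182 without ZT18A, and Sdsl 0.238, Prodh 0.199 and Hpd 0.132 without ZT18B.

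All 8 gluconeogenesis genes were higher in periportal cells of both libraries, 3 of them past the threshold, with a median of 0.52. Pck1, the gatekeeper of gluconeogenesis, had 521 and 586 CPM in pericentral and 1410 and 931 CPM in periportal cells (1.05 ± 0.15, adjusted p = 4e-06). Fbp1, fructose-1,6-bisphosphatase, had 511 and 478 against 845 and 827 CPM (0.76 ± 0.15, adjusted p = 0.001). Of 15 glycolysis and glycogen genes 1 passed, Eno1 (0.94 ± 0.27), an enolase at 35.4 and 17.3 against 59.0 and 40.8 CPM. The gluconeogenesis calls numbered 0 without ZT18A (Pck1 adjusted p = 0.0747, Fbp1 0.0659, Eno1 0.166) and 1 without ZT18B (Fbp1 0.105, Eno1 0.401).

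Lipid genes were split. Of 17 fatty acid synthesis genes, 2 were periportal and 3 pericentral, with 0 and 1 without ZT18A and 1 and 2 without ZT18B. Elovl3, an elongase of very long chains, had 312 and 196 CPM in pericentral and 88.5 and 49.0 CPM in periportal cells (-1.90 ± 0.23, adjusted p = 3.7e-07), and malic enzyme Me1 had 431 and 196 against 160 and 126 CPM (-1.06 ± 0.16). In the opposite direction, Acaca, acetyl-CoA carboxylase and the first committed enzyme of the path, had 79.8 and 63.2 against 133 and 103 CPM (0.72 ± 0.16), and the desaturase gene Fads1 had 303 and 315 against 512 and 460 CPM (0.65 ± 0.14). Acaca and Me1 lost the call without ZT18A (adjusted p = 0.165 and 0.206), as did Fads1 (0.225), and Acaca without ZT18B (0.101).

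Among 18 fatty acid oxidation and ketogenesis genes, 4 were pericentral and 0 periportal (0 by DESeq2 and at an unadjusted p under 0.05), with a median of -0.20. The largest were the microsomal fatty acid hydroxylases Cyp4a10 (140 and 143 against 8.94 and 21.2 CPM, -3.21 ± 0.38) and Cyp4a14 (33.3 and 54.5 against 4.47 and 5.72 CPM, -3.09 ± 0.47), and both stayed past the threshold without either ZT18 library. The list held 2 calls without ZT18A and 2 without ZT18B. Cholesterol genes gave 2 periportal and 5 pericentral calls of 22. Nsdhl (-1.03 ± 0.24) and Hmgcs1 (-0.82 ± 0.17), steps of sterol synthesis, were pericentral, and Sqle (0.75 ± 0.22), the squalene epoxidase, and Insig2 (0.57 ± 0.15), a sterol sensor partner, periportal. No periportal cholesterol gene passed without either library or by DESeq2, and pericentral ones numbered 0 without ZT18A and 2 without ZT18B.

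Bile acid synthesis was pericentral at its entry. Of 11 tested genes, 3 were pericentral and 0 periportal (0 by DESeq2 and at an unadjusted p under 0.05): Cyp7a1, Akr1c6 and Cyp27a1, the first enzyme of the alternative pathway (-0.79, adjusted p = 0.0736 without ZT18A and 0.0753 without ZT18B). Akr1c6, an aldo-keto reductase of steroids, had 915 and 952 CPM in pericentral and 347 and 377 CPM in periportal cells (-1.37 ± 0.14, adjusted p = 8e-09). Transporters of bile acids and organic ions gave 5 pericentral and 1 periportal call of 13, with a median of -0.48. Without ZT18A 2 pericentral and 0 periportal calls were made, and without ZT18B 2 and 1. Slco1b2, an uptake carrier of the sinusoidal membrane, had 1320 and 1100 against 358 and 376 CPM (-1.71 ± 0.16, adjusted p = 4.9e-10). Abcg5, one subunit of the sterol exporter, had 17.2 and 24.2 against 4.47 and 8.17 CPM (-1.69 ± 0.38), and the single periportal one, the organic anion carrier gene Slc22a7, had 8.08 and 7.79 against 45.6 and 30.2 CPM (2.22 ± 0.44). Abcg5 lost the call without either library (adjusted p = 0.115 without ZT18A and 0.130 without ZT18B), and Slc22a7 without ZT18A (0.128).

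Called detoxification genes were mostly pericentral. Of 26 xenobiotic P450 genes, their reductase Por among them, 15 were higher in pericentral and 2 in periportal cells, and the median was -1.08. The counts were 12 and 1 without ZT18A and 11 and 0 without ZT18B. All 10 tested Cyp2c genes passed on the pericentral side, from Cyp2c37 at -5.65 to Cyp2c70 at -0.59. The 2 periportal members were Cyp2a12 (178 and 146 against 305 and 337 CPM, 0.99 ± 0.18) and Cyp2d26 (130 in each library against 221 and 206 CPM, 0.71 ± 0.17). Cyp2d26 lost the call without ZT18A (adjusted p = 0.206) and without ZT18B (0.125), and Cyp2a12 without ZT18B (0.132). Of 27 conjugation genes, which attach glutathione, glucuronic acid or sulfate, 7 were pericentral and 1, Ugt2b38, periportal (4 and 1 without ZT18A). Gstm3 had 99.0 and 53.7 against 15.2 and 22.9 CPM (-1.95 ± 0.29), with an adjusted p of 0.107 without ZT18A.

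A pair of regulators known to drive detoxification genes was pericentral too. Ahr, the receptor for dioxin-like compounds, had 25.3 and 23.4 CPM in pericentral and 2.68 and 3.27 CPM in periportal cells (-2.99 ± 0.44, adjusted p = 1.1e-05). Nr1i3, which encodes the drug receptor CAR, had 74.7 and 54.5 against 13.4 and 18.8 CPM (-1.97 ± 0.27, adjusted p = 2.9e-06). Both kept the call without either library. In the list of nuclear receptors, which also holds Ahr, they were the 2 pericentral calls of 16, with Rora as the only periportal one.

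Few Wnt target genes could be tested: 5 of the 12 listed passed the minimum of 3 CPM, and 2 were pericentral. Tbx3, a Wnt-responsive transcription factor of the central vein, had 16.2 and 5.19 CPM in pericentral cells and no UMI in periportal cells. Its 22 pericentral UMIs were at least 8.48-fold more, at equal totals, than a periportal floor of 3 UMIs over both libraries. Notum, a secreted Wnt inhibitor, had 20.2 and 16.4 against 4.47 and 4.08 CPM (-2.07 ± 0.44, adjusted p = 0.002), with adjusted p = 0.128 without ZT18A and 0.0722 without ZT18B. Tbx3 fell under the minimum without ZT18A. Hypoxia-induced genes gave 3 pericentral calls of 10, led by the oxygen sensor Egln3 (20.2 and 17.3 against 5.36 and 4.90 CPM, -1.85 ± 0.48), and none remained without ZT18A, without ZT18B or by DESeq2 (Egln3 adjusted p = 0.246, 0.183 and 0.159).

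Secreted plasma proteins leaned to the periportal side by modest amounts. Of 36 coagulation and complement genes, 19 were periportal and 0 pericentral (0 by DESeq2 and at an unadjusted p under 0.05), with a median of 0.49 and a range from -0.18 to 0.88. Vtn, vitronectin, had 270 and 359 CPM in pericentral and 586 and 565 CPM in periportal cells (0.88 ± 0.17, adjusted p = 0.00055), and the clotting factor gene F10 had 147 and 167 against 265 and 310 CPM (0.87 ± 0.17). In 29 of the 36 both libraries were higher on the periportal side. With a ZT18 library left out, 0 passed without ZT18A and 4 without ZT18B (F10 adjusted p = 0.0554 and 0.0902, Vtn 0.206 without ZT18A), while the list's median stayed on the periportal side.

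Of 31 plasma carrier and acute phase genes, 13 were periportal and 1 pericentral, with a median of 0.45. Without ZT18A, and again without ZT18B, 2 periportal and 0 pericentral calls remained. Alb, which encodes serum albumin, had 20900 and 25200 CPM in pericentral and 50100 and 58500 CPM in periportal cells (1.24 ± 0.16, adjusted p = 7.3e-07). Hpx had 1050 and 1650 against 3120 and 4510 CPM (1.51 ± 0.17, adjusted p = 8.5e-08). The pericentral one was Serpina6, the corticosteroid carrier of blood (64.6 and 69.3 against 33.1 and 36.8 CPM, -0.94 ± 0.22, adjusted p = 0.171 without ZT18A and 0.161 without ZT18B). Apolipoproteins divided, 3 periportal and 4 pericentral of 18, with 1 and 1 without ZT18A, 1 and 2 without ZT18B, and 1 and 1 by DESeq2. Apoa4, an apolipoprotein of lipid export, had 55.6 and 37.2 against 191 and 143 CPM (1.86 ± 0.25), Apoc1 had 13300 and 14200 against 7410 and 8140 CPM (-0.82 ± 0.14), and both kept their calls without either library.

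The major urinary proteins, pheromone carriers made by male mouse liver, ran in opposite directions within one family. Of 21 tested, Mup20 was periportal, with 6600 and 6460 CPM in pericentral and 19500 and 18300 CPM in periportal cells (1.53 ± 0.18, adjusted p = 9.3e-08). Mup11 was pericentral, with 4060 and 3600 against 567 and 349 CPM (-3.10 ± 0.25, adjusted p = 2.2e-11), as were 4 others (2 pericentral calls in all without either ZT18 library, 1 by DESeq2). Mup8 (151 and 122 against 65.2 and 54.7 CPM, -1.18 ± 0.19) is one of these. The last 300 bases of Mup11 match Mup17 at 98.7% and Mup8 at 97.3%, so the split among those genes is uncertain, and Mup20 matches Mup11 at 90.0%.

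The machinery of translation and respiration differed in small but broad steps. Of 77 ribosomal protein genes, 36 were pericentral and 0 periportal (0 by DESeq2 and at an unadjusted p under 0.05), with a median of -0.43, and 73 were higher in the pericentral cells of both libraries. Rps19 had 2010 and 2350 CPM in pericentral and 1100 and 1370 CPM in periportal cells (-0.83 ± 0.13, adjusted p = 3.4e-05), and Rpl35 had 440 and 468 against 267 and 289 CPM (-0.71 ± 0.14). The list gave 1 call without ZT18A, 4 without ZT18B, 23 with every cell thinned to 1000 UMIs and 50 with library totals alone. Its median at ZT0, ZT6 and ZT12 was -0.23, -0.20 and -0.18. Whether the ZT18 median differs from these was not tested for the list, and no single member departed in the test given further on.

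Transcripts of the mitochondrial genome went the other way. Of 13 genes, 8 were periportal and 0 pericentral (0 by DESeq2 and at an unadjusted p under 0.05), with a median of 0.44, and all 13 were higher in periportal cells of both libraries. mt-Co2, a subunit of cytochrome oxidase, had 14700 and 13800 CPM in pericentral and 23000 and 21300 CPM in periportal cells (0.64 ± 0.12, adjusted p = 0.00053), and mt-Atp6 of the ATP synthase had 26200 and 23400 against 40800 and 36300 CPM (0.64 ± 0.12). The nuclear genes of the same complexes had a median of -0.16, with 44 higher in pericentral and 19 in periportal cells of both libraries. Of 77, 5 (6.49%) were pericentral, against 3.76% of all tested genes, and 0 periportal (0 by DESeq2, 1 at an unadjusted p under 0.05). Pericentral calls numbered 1 by DESeq2 and 18 with library totals alone. The list's median at ZT0, ZT6 and ZT12 was 0.1, 0.11 and 0.2, and its difference from ZT18 was not tested. No gene of these 2 respiration lists kept the call without ZT18A or without ZT18B (adjusted p = 0.075 and 0.0636 for mt-Co2). After thinning to 1000 UMIs the mitochondrial list gave 7 calls, all periportal, and the nuclear list 1, pericentral. The part of the mitochondrial share, of cell depth or of RNA quality in these lists was not tested.

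The remaining lists held few calls. Clock genes gave 2 periportal calls of 15, Cry1 (21.2 and 19.0 against 37.5 and 38.4 CPM, 0.92 ± 0.28, adjusted p = 0.0421), a repressor of the clock, and Rora (122 and 97.0 against 159 and 154 CPM, 0.52 ± 0.16, adjusted p = 0.0478), and neither held by DESeq2, with library totals alone, or without either ZT18 library (adjusted p = 0.0702 to 0.574 over these). Haem synthesis gave 0 of 7 (edgeR; 0 by DESeq2, 1 at an unadjusted p under 0.05). Protein quality control genes gave 1 periportal (Xbp1) and 1 pericentral (Ddit3) call of 20 for folding in the endoplasmic reticulum, 2 pericentral of 13 for other chaperones (Hspa1b and Dnaja1) and 2 pericentral of 46 for the proteasome (Psmd14 and Psma1). The antioxidant list gave 2 pericentral of 21 (Txnip and Txn1), the growth hormone and IGF axis 1 of each side among 13 (Igfals periportal, Igfbp1 pericentral) and the iron list 2 periportal (Tfrc and Trf) and 1 pericentral (Ftl1) of 10. Each of the genes named for these last 6 lists lost the call without ZT18A and without ZT18B.

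A few calls touch on genes of other cells. In the portal rim list, 2 of 5 tested genes were periportal, Cdh1 and Spp1, and Spp1 rests on 17 periportal UMIs against 1, a ratio of 14.7 (95% counting interval 2.30 to 614); it was not called without ZT18B (adjusted p = 0.153) or by DESeq2 (0.293), and fell under the minimum level without ZT18A. The cholangiocyte genes Krt19 and Epcam were at 0 in the same sums, and summed cholangiocyte markers, of which Spp1 is one, were 9.20 and 8.56 CPM in pericentral and 28.1 and 16.8 CPM in periportal cells. Haemoglobin Hba-a1 was pericentral (3.03 and 18.2 against 0.894 and 3.27 CPM, adjusted p = 0.0495, 0.173 without ZT18A and 0.901 by DESeq2), and haemoglobin made at most 0.0075% of the UMIs of any outer zone and 0.0789% of the middle cells of ZT18B.

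**Figure D4:**
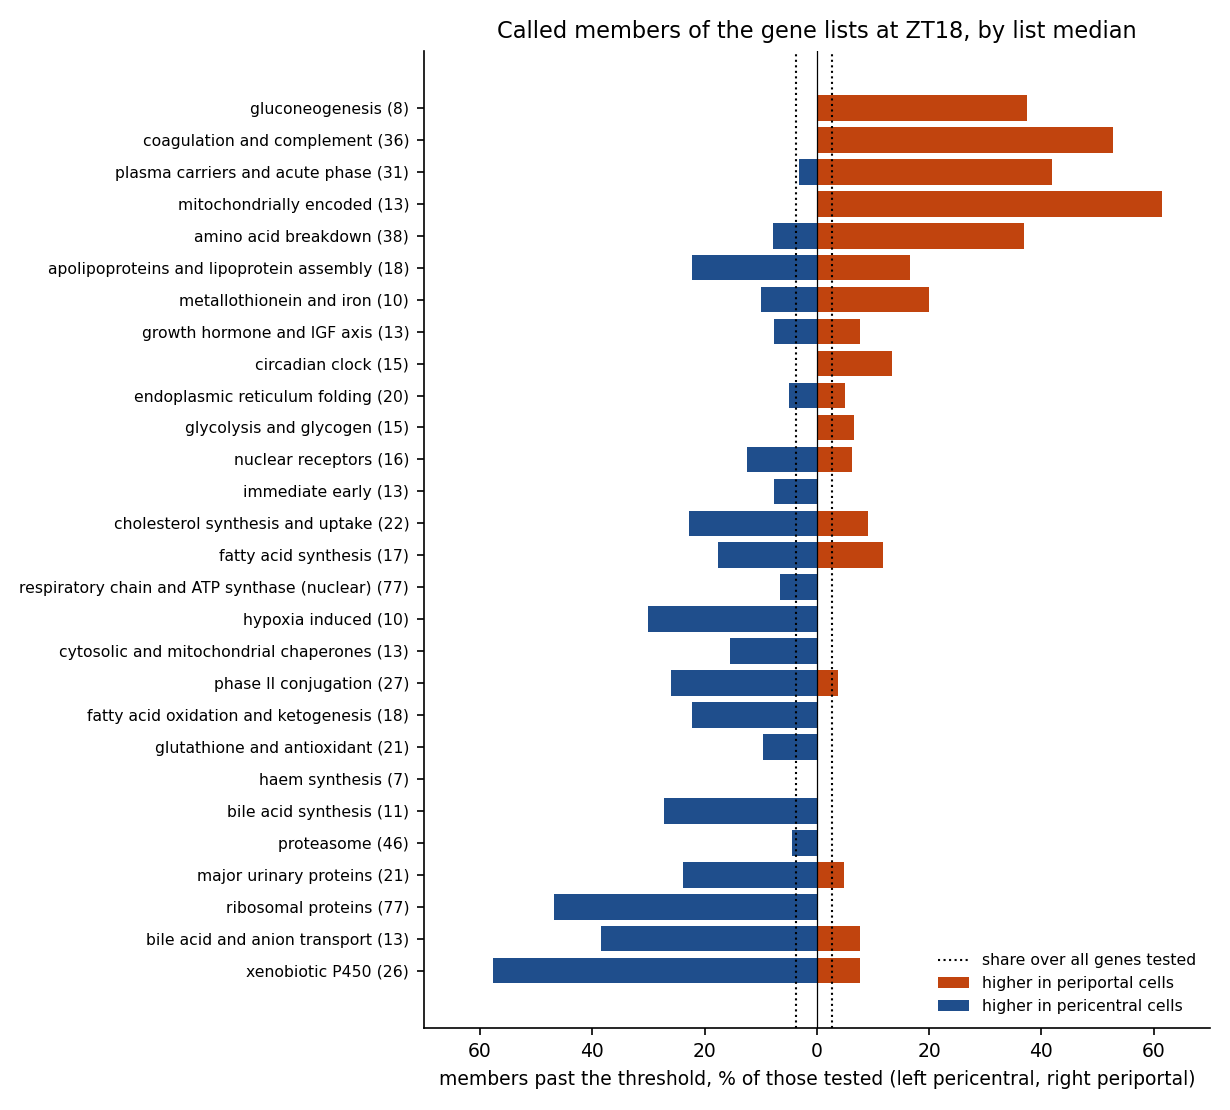
Share of tested members past the threshold for each list with at least 7 tested genes (number tested in brackets), without the 2 lists of textbook zone markers (9 of 12 periportal and 11 of 11 pericentral), pericentral calls to the left in blue and periportal calls to the right in red, ordered by list median. Dotted lines give the share over all 8830 genes, 3.76% and 2.75%. The longest bars drawn are 61.5% periportal for mitochondrially encoded genes and 57.7% pericentral for xenobiotic P450.

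The zone difference at ZT18 was then compared with the mean zone difference of ZT0, ZT6 and ZT12, to ask which genes are arranged differently at that time. The odd-numbered and even-numbered scores correlated less at ZT18 (r = 0.6829 and 0.6963) than in the libraries of other times (0.7048 to 0.8465). The score correlated with log UMIs per cell at 0.1933 and 0.1566 at ZT18, and at -0.0917 to 0.1796 at other times. The part of cell order and depth in the departures was not tested. Of 8830 genes, 5 (0.0566%) departed at an adjusted p under 0.05 (edgeR's quasi-likelihood test), and 644 at an unadjusted p under 0.05. The number was 2 both without ZT18A and without ZT18B, and 3 by DESeq2.

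Cyp7b1, the oxysterol hydroxylase of the alternative bile acid pathway, was nearly level across the ZT18 lobule. It had 170 and 211 CPM in the pericentral and 151 and 165 CPM in the periportal cells of ZT18A and ZT18B. In the 8 libraries of other times, pericentral cells ranged from 53.7 to 381 CPM (median 98.2) and periportal cells from 7.28 to 119 CPM (median 20.9). The log2 zone difference was -0.27 at ZT18 against -1.56, -1.98 and -2.24 at ZT0, ZT6 and ZT12, a departure of 1.66 ± 0.23 (adjusted p = 7.3e-05). No other library came nearer to level than -1.23. This call held in every leave-one-out fit (adjusted p at most 0.0337) and by DESeq2 (0.00763).

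Cyp2a4, a steroid hydroxylase gene on the same chromosome as Cyp2a5, was higher in pericentral cells of both ZT18 libraries. It was higher in periportal cells of 6 of the 8 libraries of other times. Pericentral cells had 36.4 and 23.4 CPM in ZT18A and ZT18B and periportal cells 0.894 and 0.817 CPM, which is 63 UMIs against 2, a ratio of 36.4 (95% counting interval 9.68 to 308). At other times pericentral cells ranged from 1.31 to 29.0 CPM and periportal cells from 1.34 to 115 CPM, and most of those UMIs (285 of 386 periportal) came from ZT12B. Several of the 6 periportal libraries rest on few UMIs: periportal against pericentral counts were 6 and 3 in ZT0C, 6 and 4 in ZT6B and 3 and 2 in ZT12A. These counts were 58 and 14 in ZT0B and 24 and 4 in ZT6A. The departure was -6.84 ± 0.72 (adjusted p = 3.3e-07) and stayed past the threshold in every leave-one-out fit (at most 0.0016), but the gene is not in the set of at least 20 CPM. Of its last 300 transcript bases 97.3% match Cyp2a5, while 60.3% of the last 300 bases of Cyp2a5 match Cyp2a4. Cyp2a5 was pericentral in all 10 libraries, with a median pericentral level of 341 CPM at other times, and how reads that fit both genes were counted is not known here. At ZT18 Cyp2a4 held 63 pericentral UMIs beside 905 of Cyp2a5.

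Glul and Tsc22d1 were less steep at ZT18 than at other times. Glul had 385 and 175 CPM in pericentral cells at ZT18, against 364 to 3300 CPM (median 626) at other times, while periportal cells had 55.4 and 46.6 against 18.8 to 84.2 CPM. Its difference was -2.38 at ZT18 and -4.32, -4.57 and -4.44 at ZT0, ZT6 and ZT12, a departure of 2.06 ± 0.40 (adjusted p = 0.0253). Tsc22d1, a leucine zipper transcription regulator, had 60.6 and 48.5 CPM in pericentral and 17.9 and 25.3 CPM in periportal cells at ZT18, and the departure was 1.68 ± 0.35 (adjusted p = 0.0445). Both calls were weak: they were lost without either ZT18 library (Glul 0.0879 without ZT18A and 0.805 without ZT18B, Tsc22d1 0.0879 and 0.898), without ZT6A (0.097 and 0.109), ZT6B (0.124 for each) or ZT12A (0.0539 and 0.0633), and by DESeq2 (0.999 and 0.434).

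Ier2, an immediate early gene that cells induce within minutes of a stimulus, was higher in pericentral than in periportal cells at ZT18. It had 65.7 and 60.6 CPM in pericentral and 30.4 and 28.6 CPM in periportal cells at ZT18 (-1.10 ± 0.21). At ZT0, ZT6 and ZT12 the difference was 0.37, 0.37 and 0.68. The departure was -1.57 ± 0.23 (adjusted p = 0.00029), with 0.0729 without ZT18A, 0.079 without ZT18B and 0.0248 by DESeq2. The other 12 of 13 tested immediate early genes gave 0 calls between zones at ZT18 (edgeR; 0 by DESeq2, 3 at an unadjusted p under 0.05).

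**Figure D5:**
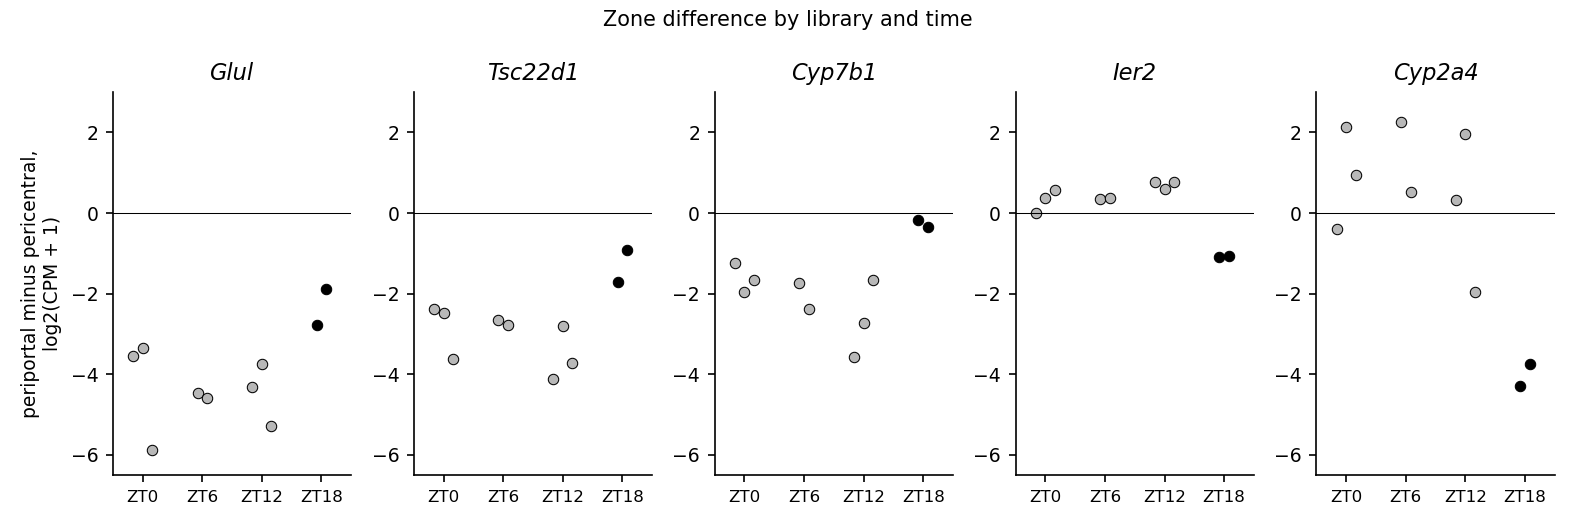
Zone difference (periportal minus pericentral, log2(CPM + 1)) of the 5 departing genes in each of the 10 libraries, by time; ZT18 in black, other times in grey, and the line at 0 marking equal levels. The ZT18 points lie outside the range of the other 8 libraries for all 5 genes, at -0.17 and -0.35 for Cyp7b1 and at -1.09 and -1.06 for Ier2. The 5 genes were chosen by a test of these same differences.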

How the data were processed

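The deposited tables hold raw UMI counts per gene and cell, one column per cell, as the authors made them. The submitters' processing notes name Cell Ranger and the builds hg19 and mm10 without a role, and versions and the handling of reads that fit several genes are not given in the sources used here. Of 14812 entries, 14320 matched one GENCODE symbol. The members and lists were chosen with earlier results of these data known.

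Counts were summed over the pericentral and periportal cells of each library. edgeR 4.0.16 (R 4.3.3) fitted the 20 sums of 10 libraries by quasi-likelihood, with TMM factors, a term for each library and a zone term for each time (6 residual degrees of freedom). Genes had a mean of at least 3 CPM over the 4 ZT18 sums, and p-values were adjusted by Benjamini-Hochberg over all tested genes without landmarks. CPM values are TMM-scaled, except those of the cell type markers and of the 10 layers, which use zone or layer totals alone. Positive differences are periportal. Named genes were the 10 of largest difference a side with a mean of at least 20 CPM, up to 2 called on each side of each list, and the departing genes. Cps1, Hpd, single members of lists outside that rule were chosen after their values were seen. Alternatives were DESeq2 1.42.0, other scalings, filters, cell cuts and landmark subsets, and each library left out. The test was also run on counts simulated from a common mean profile and the real totals. Those counts held no library effect and no error in cell order, so that run cannot speak to either. Counting intervals are exact and cover counting error only.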

Additional observations from a re-analysis of the deposited data

Results flagged for a closer look

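For 5 genes the zone difference at ZT18 departed from the mean of the other times by the test of that difference (edgeR, log2 scale, 2 libraries against 8). Cyp2a4 departed by -6.84 and Ier2 by -1.57, both toward the pericentral side. Cyp7b1 departed by 1.66, Glul by 2.06 and Tsc22d1 by 1.68, toward the periportal side or toward level. Both ZT18 libraries lay outside the range of the other 8 for each, but the genes were chosen by a test of these same differences. Glul and Tsc22d1 are the least secure, with adjusted p of 0.805 and 0.898 without ZT18B. The ZT18 libraries also share an index column, which cannot be told apart from the time of day.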

How the results depend on the processing

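The count of genes differing between zones at ZT18 (575) moved to 256 with DESeq2, 1020 with the ZT18 libraries alone (1 residual degree of freedom), 334 with cells thinned to 1000 UMIs and 274 with cells of at least 2000 UMIs. Leaving out one library gave 136 (without ZT18A) to 747 (without ZT0C). The other planned settings gave 459 to 667. The departing genes (5) numbered 3 with DESeq2, 30 with no filter on low counts, 2 among genes of at least 20 CPM and 11 with cells of at least 2000 UMIs, and 2 (without ZT18A or ZT18B) to 13 (without ZT0C) with one library left out. The cause of these moves was not tested. Of 88 named genes none reversed; 46 lost the call without ZT18A, 37 without ZT18B, 27 with DESeq2, 24 after thinning and 28 in cells of at least 2000 UMIs. Deviations from the mean of each time were compared between libraries of the same letter. The 13 same-letter pairs correlated between -0.1082 and 0.2259 (24 other pairs -0.3281 to 0.2142), and the 6 with a ZT18 library between -0.0184 and 0.0073. Where a time has 2 libraries, as ZT18 does, their deviations are mirror images, so those pairs cannot decide whether letters pair the samples. Between ZT0 and ZT12 the same-letter pairs gave -0.0815 (A), 0.1941 (B) and 0.2259 (C), and other pairs -0.3281 to 0.2142. With the letter as a replicate block the departing genes numbered 12, and without the library block, which ties the zones of a library, the zone count was 62. Depth limits genes of few UMIs, and 2 libraries limit every ZT18 statement.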
